A study of Mus musculus with 6 samples.

Results

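The genes of oxidative phosphorylation were taken from both genomes of the mouse cell. They were the rows of the count table whose symbol begins with Nduf, Uqcr, Atp5 or mt-, or with Cox and a digit from 4 to 8, together with Sdha, Sdhb, Sdhc, Sdhd, Cyc1 and Cycs. The table of 14481 genes held 114 such members, of which 21 are encoded on the mitochondrial genome (mt- members) and 93 in the nucleus (nuclear members). All 114 passed the filter on low counts, beside 14319 of all genes. The members were sorted by complex and role from textbook knowledge, not from their values.

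The libraries hold polyadenylated RNA of sorted wild-type mouse CD8+ T cells, which are the cytotoxic T cells of the immune system. Activation was the same in both groups: 1 day on plates coated with anti-CD3 at 1 µg/ml, with anti-CD28, also at 1 µg/ml, and IL-2 at 0.1 µg/ml, in RPMI medium holding 10% FBS. Medium conditioned by astrospheres (CM) was then given for 2 days, from pSTAT3- astrospheres in the STAT3- CM group and from pSTAT3+ astrospheres in the STAT3+ CM group. RNA was taken at day 3 from 3 libraries of each group, and no library of unstimulated cells or of cells without CM was analysed here. The labels do not say whether replicates came from separate mice or cultures, so p-values measure the spread between these libraries, which may be technical. The comparison addresses how the secreted products of STAT3-positive and STAT3-negative spheres differ in their effect on CD8+ T cells.

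Oxidative phosphorylation makes ATP on the inner mitochondrial membrane. Complex I (NADH dehydrogenase) and complex II (succinate dehydrogenase) pass electrons to ubiquinone, complex III passes them to cytochrome c, and complex IV passes them to oxygen. Complexes I, III and IV pump protons, and complex V, the ATP synthase, lets them flow back to drive ATP synthesis. Every complex but II is built from subunits of both genomes, with the catalytic core of I and IV and the b-type cytochrome of III encoded partly or wholly in the mitochondrion. T cells enlarge their mitochondria after activation, and respiration is also a feature of memory CD8+ T cells.

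Total counts ran from 43346089 to 53630514 per library. CD8+ T cell identity genes were high in every library, with Cd8a at 782 to 1064 CPM (counts scaled to library size, here after TMM) and Cd3e at 178 to 217 CPM. All 10 genes of that list had positive log2 fold changes (STAT3+ CM over STAT3- CM), with a median of 0.19, and none passed the test. Markers of other cells were also measured. The 7 measured of 13 dendritic cell markers summed to 132 to 185 CPM in STAT3- CM and 95.3 to 120 CPM in STAT3+ CM, while Flt3, Clec9a and Xcr1 have no row in the table. DESeq2, run as an alternative, called 2 of these lower in STAT3+ CM, Cd74 (log2 fold change -0.93, adjusted p = 0.0124) and H2-Aa (-1.71, adjusted p = 0.00435). In edgeR 6 of the 7 were negative, among them Batf3 (-0.14) and Itgax (-0.04), and H2-Ab1 was positive (0.13). Cd74 and Batf3 made up most of each sum. Natural killer cell markers, mostly Nkg7, which CD8+ T cells also express, summed to 715 to 803 CPM in STAT3- CM and 819 to 846 CPM in STAT3+ CM. Stroma and endothelium markers (3 of 8, mostly Pecam1) summed to 31.4 to 32.6 and 35.0 to 48.1 CPM, and the 1 measured of 7 B cell markers had 7.40 to 10.7 and 10.9 to 11.8 CPM. These 3 sums were thus higher in every STAT3+ CM library, but not every gene in them was. Log2 fold changes were negative for Col1a1 (-0.19), Pdgfrb (-0.10) and, among natural killer cell markers, Klrb1c (-0.13). The CD4 T cell and the neutrophil and mast cell lists overlapped between groups, with at most 62.4 and 3.59 CPM. Astrocyte and glia markers (4 of 10 measured, mostly Mbp) summed to 111 to 139 CPM in STAT3- CM and 88.5 to 102 CPM in STAT3+ CM. Monocyte and macrophage markers (5 of 11, nearly all Ly6c2) summed to 93.4 to 149 and 109 to 204 CPM. Of the 4 of them tested, Ly6c2 (0.33) and Cd14 (0.41) were positive, and Cd68 (-0.43) and Lyz2 (-0.53) were negative. None of 6 erythroid markers has a row. The part of these differences in the member values was not tested. In bulk RNA, fewer cells of a type and less RNA per cell cannot be told apart.

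Nearly all nuclear members had slightly higher mean levels in STAT3+ CM, and no member passed the test. Of the 93 nuclear members, 90 (96.8%) had a positive log2 fold change, against 50.2% of all genes tested. Their median log2 fold change was 0.17, a fold of 1.12, while that of all genes was 0.000758. Among the 21 mt- members 19 were positive, with a median of 0.14. Scaling by library totals in place of TMM moved the median of all genes to -0.04, and left 85 nuclear and 18 mt- members positive. The edgeR quasi-likelihood test called 0 members at an adjusted p of 0.05, and 0 of 14319 genes (0%). The smallest adjusted p of a member was 0.989. DESeq2 called 48 of all genes (0.335%) and 0 members. At an unadjusted p of 0.05, 6 of 114 members were higher in STAT3+ CM (Ndufa5, Ndufb4, Cycs, mt-Co2, Ndufb1 and Uqcrb) and 0 were lower, against backgrounds of 1.34% and 2.3% of all genes. For the nuclear members the median standard error of a log2 fold change was 0.14, so 85 of 93 lay within 2 standard errors of 0.

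In 13 members the 3 STAT3+ CM libraries all stood above the 3 STAT3- CM libraries. They were 12 of the 93 nuclear members (12.9%) and 1 of the mt- members, against 3.78% of all genes. Short transcripts other than the nuclear members had higher shares than all genes, both here and for positive values, as given further on. No member had all STAT3+ CM libraries below, against 4.18% of all genes. Because members share libraries and vary together, this count is a description of these 6 libraries. Leaving out 1 library changed it: 68 nuclear members were apart without STAT3+ CM replicate 3, against 13.4% of all genes in that fit, and 22 without STAT3- CM replicate 2, against 8.7%. The count was 16 without STAT3- CM replicate 3 (11.3% of all genes) and 14 without STAT3- CM replicate 1 (5.95%). It was 12 without STAT3+ CM replicate 1 (7.99%) or 2 (5.87%). Without both STAT3- CM replicate 3 and STAT3+ CM replicate 1, a choice made after the data were seen, it was 16, against 17.1% of all genes. The nuclear median was 0.08 without STAT3+ CM replicate 2, where 80 members were positive and none of the 114 reached an unadjusted p of 0.05, against 0.768% of all genes higher and 1.27% lower. It was 0.27 without STAT3+ CM replicate 3, where 34 of the 114 did, all higher in STAT3+ CM, against 3.78% of all genes higher and 5.67% lower in that fit. Without STAT3- CM replicate 3, 3 of the 114 did, all higher, against 3.57% of all genes higher and 2.94% lower.

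**Figure D1:**
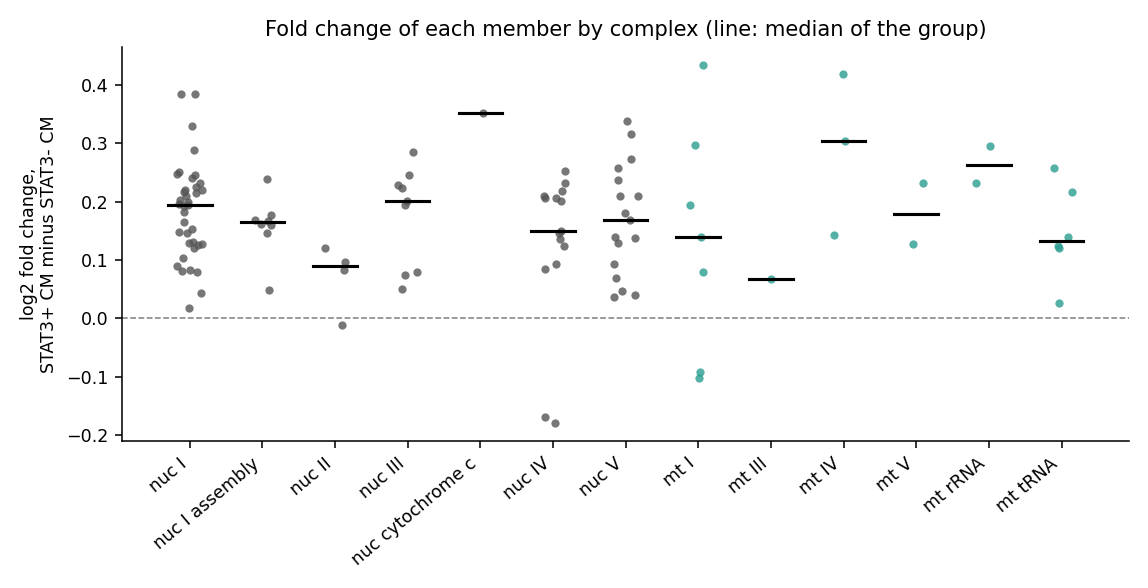
Log2 fold change (vertical axis, STAT3+ CM over STAT3- CM, edgeR) of 112 members, each as a point, by complex and genome on the horizontal axis, without the 2 rows of pseudogene symbol. Short lines are medians and the dashed line marks 0. The nuclear columns lie almost wholly above 0 with medians of the complexes from 0.09 in II to 0.20 in III, and no point passed the test.

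Complex I takes electrons from NADH. Its 37 nuclear subunits all had positive log2 fold changes (35 of 37 when scaled by library totals, where Ndufs1 and Ndufs8 were negative), with a median of 0.19. None passed the test. The 7 nuclear core subunits, which carry the flavin and iron-sulfur clusters, had a median of 0.08. The 30 accessory subunits, which surround the core and stabilise it, had a median of 0.21. By symbol, the medians were 0.22 over 11 Ndufb genes of the membrane arm, 0.17 over 14 Ndufa genes and 0.10 over 8 Ndufs genes. The 14 Ndufa genes include Ndufab1 and also Ndufa4, which is a subunit of complex IV. The core subunits are also longer transcripts (median 1046 bases against 623 bases for the accessory subunits), and length is taken up further on.

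Ndufa5, an accessory subunit of the matrix arm, had the largest log2 fold change of a nuclear member. Its levels were 57.9, 61.0 and 49.2 CPM in STAT3- CM and 70.5, 83.3 and 65.8 CPM in STAT3+ CM, so all STAT3+ CM libraries were higher. The means were 56.0 ± 6.11 CPM in STAT3- CM and 73.2 ± 9.09 CPM in STAT3+ CM (SD, n = 3 each), a log2 fold change of 0.38 (standard error, SE, 0.14). Ndufb4, an accessory subunit of the membrane arm, measured 44.9, 45.03 and 44.7 CPM in STAT3- CM and 59.9, 68.2 and 47.7 CPM in STAT3+ CM. Its groups did not overlap either, with a log2 fold change of 0.38 (SE 0.14). The lowest STAT3+ CM library was replicate 3 for both genes. Ndufs4, an accessory subunit whose loss in mice gives a Leigh-like disease, stood at 83.9, 83.9 and 78.2 CPM in STAT3- CM and 97.6, 109 and 84.5 CPM in STAT3+ CM. Its groups were apart by a narrow margin in replicate 3, and the log2 fold change was 0.25 (SE 0.13).

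The 8 Ndufaf genes encode assembly factors, which build complex I and are not part of it. All 8 were positive with a median of 0.16, and none passed the test or had groups apart. Ndufaf6 measured 21.9, 25.3 and 24.9 CPM in STAT3- CM and 30.7, 29.5 and 24.9 CPM in STAT3+ CM, and its log2 fold change was 0.24 (SE 0.14). Ndufaf7, a methyltransferase acting on a core subunit, measured 39.0, 44.7 and 39.6 CPM in STAT3- CM and 44.4, 50.8 and 44.3 CPM in STAT3+ CM. The most abundant factor in CPM, Ndufaf4, measured 65.8, 68.8 and 46.4 CPM in STAT3- CM and 57.7, 78.6 and 66.1 CPM in STAT3+ CM. In all 3 genes STAT3+ CM replicate 2 or 1 was the highest library and the groups overlapped.

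Complex II oxidises succinate and is also an enzyme of the citric acid cycle. Its 4 subunits, all nuclear, had the lowest median of the complexes, 0.09, and none passed the test. Sdha, the flavoprotein that binds succinate, measured 314, 357 and 308 CPM in STAT3- CM and 359.7, 301 and 311 CPM in STAT3+ CM. Its log2 fold change of -0.01 (SE 0.13) was 1 of the 3 negative nuclear values. Sdhb, the iron-sulfur subunit, measured 229, 240.3 and 207 CPM in STAT3- CM and 253, 274 and 197 CPM in STAT3+ CM. Sdhc and Sdhd anchor the enzyme in the membrane. Sdhc stood at 128, 140.3 and 131 CPM in STAT3- CM and 152, 154 and 128 CPM in STAT3+ CM, and Sdhd at 209, 239.7 and 194 CPM in STAT3- CM and 224, 250.2 and 206 CPM in STAT3+ CM. The 3 log2 fold changes of Sdhb, Sdhc and Sdhd were 0.10, 0.12 and 0.08, each of about its SE or less, and the groups overlapped in all 4 genes.

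Complex III moves electrons from ubiquinol to cytochrome c. All 9 nuclear subunits were positive, with a median of 0.20, and none passed the test. Uqcrb, an accessory subunit at the ubiquinone site, measured 98.3, 113 and 94.6 CPM in STAT3- CM and 125, 134 and 114 CPM in STAT3+ CM. The groups did not overlap, but STAT3+ CM replicate 3 lay only just above STAT3- CM replicate 2. Its log2 fold change was 0.29 (SE 0.13). Uqcrh, the hinge protein that holds cytochrome c1, measured 257, 263 and 262 CPM in STAT3- CM and 293, 354 and 281 CPM in STAT3+ CM, again with groups apart, and its log2 fold change was 0.25 (SE 0.13). Uqcrc2, a structural core protein with the highest CPM among the nuclear subunits of the complex, measured 327, 365 and 347 CPM in STAT3- CM and 399, 353 and 347 CPM in STAT3+ CM and had overlapping groups. Cyc1, cytochrome c1 itself, measured 237, 251 and 203 CPM in STAT3- CM and 226, 277 and 225 CPM in STAT3+ CM. Its log2 fold change was 0.07 (SE 0.14).

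Cycs encodes somatic cytochrome c, the soluble carrier between complexes III and IV and a trigger of apoptosis when released. It measured 219, 225 and 186 CPM in STAT3- CM and 252, 312 and 239.7 CPM in STAT3+ CM, and its groups did not overlap. The means were 209.8 ± 21.1 CPM in STAT3- CM and 268 ± 38.4 CPM in STAT3+ CM (SD, n = 3 each). The log2 fold change of 0.35 (SE 0.14) was the third largest among nuclear members, and the adjusted p of edgeR's quasi-likelihood test was 0.989. STAT3- CM replicate 3 was the lowest library and STAT3+ CM replicate 2 the highest.

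Complex IV reduces oxygen to water. Its 11 ubiquitous accessory subunits, which are nuclear, were all positive with a median of 0.20, and none passed the test. In 5 of the 11 the groups did not overlap, against 3.78% of all genes. Among genes other than the nuclear members the share was at most 6.82% in a class of transcript length, as given further on. Cox6c measured 247, 249 and 257 CPM in STAT3- CM and 289.7, 326 and 261 CPM in STAT3+ CM, with a log2 fold change of 0.22 (SE 0.13). Cox7a2, the form of subunit VIIa found in most tissues, measured 242, 243 and 241 CPM in STAT3- CM and 273, 326 and 254 CPM in STAT3+ CM. Cox7b measured 233, 239.6 and 225 CPM in STAT3- CM and 259, 294 and 251 CPM in STAT3+ CM. In these 3 genes the lowest STAT3+ CM library was replicate 3 and the highest was replicate 2. Ndufa4, named for complex I but a subunit of complex IV, measured 239, 246 and 216 CPM in STAT3- CM and 252, 306 and 247 CPM in STAT3+ CM. Cox8a, a small membrane subunit, measured 244, 256 and 247 CPM in STAT3- CM and 269.6, 299 and 259 CPM in STAT3+ CM. The log2 fold changes of Cox7a2, Cox7b, Ndufa4 and Cox8a were 0.23, 0.21, 0.20 and 0.15. Cox4i1, the regulatory subunit that binds ATP and the most abundant of the set in CPM, measured 496, 474 and 471 CPM in STAT3- CM and 541, 589 and 398 CPM in STAT3+ CM and had overlapping groups.

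Several complex IV subunits exist as a form of most tissues and a form of heart, skeletal muscle or testis. The muscle form Cox6a2 measured 0.684, 0.426 and 0.238 CPM in STAT3- CM and 0.419, 0.576 and 0.235 CPM in STAT3+ CM, while the ubiquitous Cox6a1 measured 212, 224 and 218 CPM in STAT3- CM and 232, 281 and 206 CPM in STAT3+ CM. The muscle form Cox7a1 likewise stayed between 0.949 and 1.87 CPM. Cox7a2l, which joins complexes III and IV in supercomplexes, measured 244, 207 and 271 CPM in STAT3- CM and 310.1, 278 and 183 CPM in STAT3+ CM. The testis form Cox6b2 was higher than the muscle forms, at 5.08, 7.004 and 17.97 CPM in STAT3- CM and 7.93, 8.14 and 10.6 CPM in STAT3+ CM. Set against its ubiquitous partner Cox6b1 (239.9, 249 and 231 CPM in STAT3- CM and 243, 299.8 and 241 CPM in STAT3+ CM), this was 2.12%, 2.82% and 7.78% of the Cox6b1 level in STAT3- CM, and for STAT3+ CM 3.26%, 2.72% and 4.38%. STAT3- CM replicate 3 stood apart for Cox6b2. The 2 negative complex IV values were those of Cox6a2 (-0.18, SE 0.46) and Cox6b2 (-0.17, SE 0.40), both well within 2 standard errors of 0. Without STAT3- CM replicate 3 the Cox6b2 value was 0.56. Cox4i2, Cox7b2, Cox8b, Cox8c and Ndufa4l2 were not analysed here.

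Complex V makes ATP. All 17 nuclear members were positive (15 of 17 when scaled by library totals, where Atp5a1 and Atp5g1 were negative), with a median of 0.17. None passed the test. The 5 small membrane subunits, which hold the enzyme's dimers and the membrane's shape, had a median of 0.27. The medians were 0.13 for the 5 subunits of the F1 head, 0.15 for the 4 stalk subunits and 0.07 for the 3 genes of the c ring. Transcript lengths differed too, from 272 to 544 bases for the small membrane subunits matched and from 421 to 2471 bases for the head. The c ring genes, with the lowest median, had 441 to 714 bases. The part of length in these medians was not tested. Atp5md, a small membrane subunit, measured 219, 208 and 198 CPM in STAT3- CM and 224, 330.4 and 236 CPM in STAT3+ CM. Its groups did not overlap, and its log2 fold change was 0.34 (SE 0.16). Atp5mpl, another small subunit, measured 110.0, 113 and 99.6 CPM in STAT3- CM and 141, 154 and 106 CPM in STAT3+ CM and overlapped through STAT3+ CM replicate 3. Atp5b, the catalytic beta subunit and the most abundant nuclear member, measured 2266, 2518 and 2034 CPM in STAT3- CM and 2322, 2511 and 2205 CPM in STAT3+ CM. Its log2 fold change was 0.05 (SE 0.15).

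Atp5g1, Atp5g2 and Atp5g3 encode the same mature c ring protein from separate genes. Atp5g3 had the highest level, at 454, 493 and 387 CPM in STAT3- CM and 516, 593 and 434 CPM in STAT3+ CM. Atp5g1 measured 138, 149.5 and 105 CPM in STAT3- CM and 129, 159.8 and 114 CPM in STAT3+ CM, and Atp5g2 86.7, 95.4 and 94.9 CPM in STAT3- CM and 111, 97.9 and 81.7 CPM in STAT3+ CM. Their log2 fold changes were 0.21, 0.04 and 0.07, and the groups overlapped in all 3. On the scale of CPM per kilobase of transcript, which allows levels of different genes to be compared, the medians were 129 for complex I, 175 for complex II, 212 for complex III, 399 for complex IV and 369 for complex V. Atp5b had the highest such level among nuclear members, 1205.

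The values of the nuclear members divided by library as well as by group. STAT3+ CM replicate 1 was above all 3 STAT3- CM libraries in 71 of the 93 and below all of them in 0, where the same held for 27.8% and 26.3% of all genes. STAT3+ CM replicate 2 was above in 84 and below in 1, against 28.0% and 30.9% of all genes. STAT3+ CM replicate 3 was above in 12, below in 29 and between them in 52, against backgrounds of 18.8% above and 18.7% below. The median deviation from each gene's mean log2 CPM was -0.08, -0.03 and -0.14 in STAT3- CM replicates 1 to 3, and for STAT3+ CM 0.11, 0.27 and -0.12. For all genes tested that median lay within 0.02 of 0 in every library. STAT3+ CM replicate 2 was the highest library for 75 nuclear members. The lowest was STAT3- CM replicate 3 for 43 members and STAT3+ CM replicate 3 for 29.

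**Figure D2:**
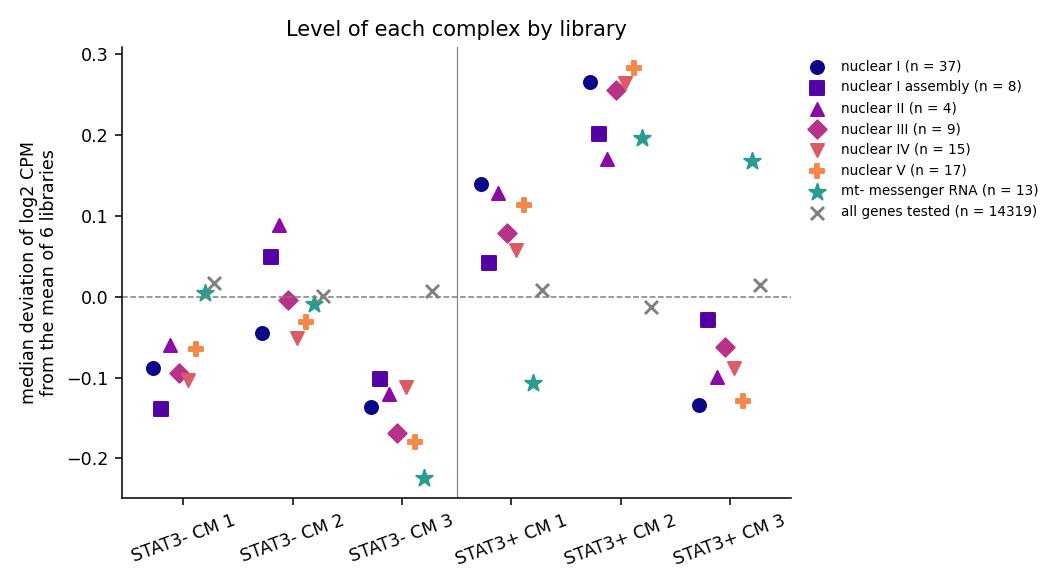
Median deviation from each gene's mean log2 CPM (vertical axis) in each of the 6 libraries (horizontal axis), with 1 symbol per nuclear complex, 1 for the mt- messenger RNAs and 1 for all genes tested. The nuclear complexes sit high in STAT3+ CM replicates 1 and 2 (complex I at 0.14 and 0.27) and low in STAT3+ CM replicate 3 (-0.13), while the mt- messenger RNAs are at -0.11, 0.20 and 0.17 there.

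In every nuclear complex the median deviation was positive in STAT3+ CM replicates 1 and 2 and negative in replicate 3. In complex I, 35 and 36 of 37 subunits were above their mean in STAT3+ CM replicates 1 and 2, and 2 of 37 in replicate 3. For complex V these counts were 13, 17 and 1 of 17. Complex II had 4, 3 and 0 of 4. Cycs, a lone gene, was above its mean in all 3 STAT3+ CM libraries.

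Transcript length moved with the fold change over all genes, not only over the members. The other genes here are all genes with a transcript length but the nuclear members. They include the mt- members and the pseudogene row Atp5l2-ps. Their median log2 fold change was 0.13 for transcripts of up to 500 bases, 0.10 from there to 1000 bases, 0.06 to 2000 bases, -0.02 to 4000 bases and -0.13 beyond. Nuclear members in these classes had medians of 0.22 (20 members), 0.18 (40), 0.09 (22) and 0.07 (6), with none in the longest class. From the shortest class up, 69.7%, 69.4%, 64.3%, 44.3% and 21.8% of the other genes were positive. The same held for 19, 39, 22 and 5 members. Groups were apart, higher in STAT3+ CM, in 6.82%, 6.01%, 5.16%, 2.53% and 1.37% of the other genes. They were so in 3, 5, 2 and 1 members. Nuclear and mitochondrial members together had a median length of 680 bases, against 2250 bases for all genes matched. Across the 88 nuclear members with a transcript in the GENCODE M21 annotation (pseudogene symbols left out), the log2 fold change and log2 length had a Pearson r of -0.32 and a Spearman rho of -0.44. Across 13882 other genes the values were -0.26 and -0.36. These are descriptions across genes that share the same 6 libraries. When the trend with length over all genes was subtracted, the members' median went from 0.17 to 0.07 (a fold of 1.05), and 77 of 88 were positive, 76 of them among the 85 positive before. Subtracting a trend with GC content left the median at 0.17 and 85 positive. Both calculations were added after the data were seen.

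Short transcripts of the other genes had the same order of STAT3+ CM libraries as the members. Among the other genes of up to 500 bases the median deviation was 0.11, 0.21 and -0.03 in STAT3+ CM replicates 1 to 3, and for the nuclear members of that length 0.10, 0.33 and -0.11. In STAT3- CM the order differed, with -0.0093, -0.11 and -0.034 in the other genes and -0.11, -0.055 and -0.15 in the members. The other genes above 4000 bases had median deviations of -0.05, -0.23 and 0.08 over STAT3+ CM replicates 1 to 3. The part of length in the members' values was measured only through this trend, and its cause was not tested.

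**Figure D3:**
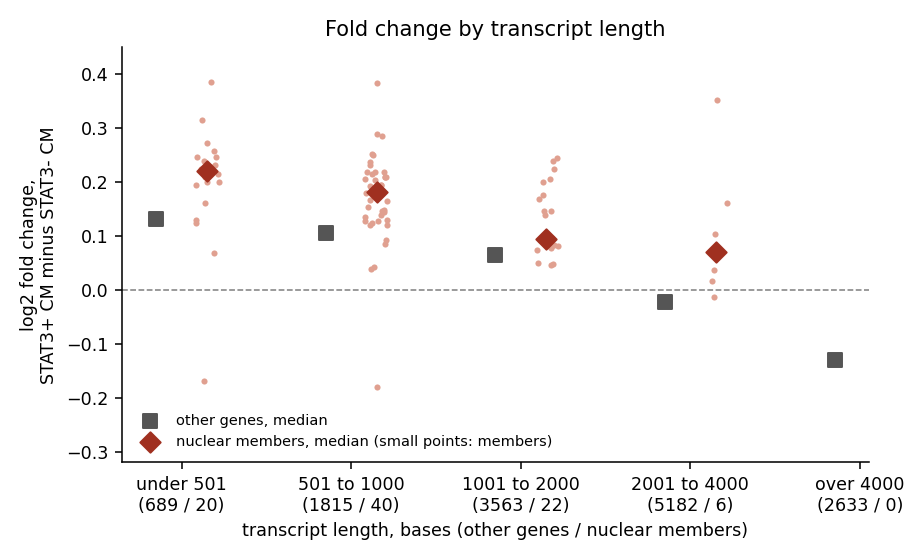
Median log2 fold change (vertical axis, STAT3+ CM over STAT3- CM) by class of transcript length in bases (horizontal axis). Squares are all genes but the nuclear members, and diamonds are the nuclear members, each of which is also a small point. The median of other genes falls from 0.13 in the shortest class to -0.13 in the longest, and the member medians fall from 0.22 to 0.07 over the 4 classes they occupy.

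Promoters of the nuclear members were read because most members had fold changes of 1 sign. RefSeq windows of 300 bases (GRCm38.p6, 250 before to 50 after each start) were found for 76 of the 91 nuclear members with a gene symbol of their own, as 81 windows. NRF1, a factor known to bind promoters of respiratory genes, was searched on both strands by the letters GCGCA and GCGC with any 1 base between them. These stood in 20 windows (24.69%), against 9.71% of the windows of other genes tested and 4.6% of all windows. The form with T as that base, a special case of the first, stood in 8.64%, 1.97% and 0.97%. The wider form was adopted after the promoters had been seen. The ETS core CCGGAAG stood in 23.46% of member windows, 17.6% of other tested windows and 8.86% of all windows. The YY1 letters AAGATGGCG stood in 9.88%, 2.92% and 1.4%. Members with and without the NRF1 letters had median log2 fold changes of 0.15 (19 members) and 0.18 (57 members). A match is a string of letters and no measured site of binding.

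The 250 bases before the start are shown for 3 members that hold the NRF1 letters, 5′ to 3′ on the minus strand, with matches in capitals. They were chosen after their values were seen, to set the complex I subunits with the largest fold changes beside Sdha, whose value was close to 0. Ndufa5 (chr6:24527691-24527940) holds 1 match, Ndufb4 (chr16:37654369-37654618) holds 3, and Sdha (chr13:74350241-74350490) holds 3.
Ndufa5: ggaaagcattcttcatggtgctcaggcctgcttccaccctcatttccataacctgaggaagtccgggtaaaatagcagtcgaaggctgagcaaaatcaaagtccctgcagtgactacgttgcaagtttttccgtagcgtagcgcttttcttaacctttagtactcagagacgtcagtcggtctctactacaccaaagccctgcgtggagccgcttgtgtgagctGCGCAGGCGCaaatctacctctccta
Ndufb4: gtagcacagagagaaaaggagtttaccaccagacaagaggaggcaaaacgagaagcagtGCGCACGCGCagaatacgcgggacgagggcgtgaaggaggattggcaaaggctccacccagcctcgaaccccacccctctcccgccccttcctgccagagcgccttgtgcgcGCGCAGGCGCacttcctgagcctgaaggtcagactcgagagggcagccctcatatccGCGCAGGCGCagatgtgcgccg
Sdha: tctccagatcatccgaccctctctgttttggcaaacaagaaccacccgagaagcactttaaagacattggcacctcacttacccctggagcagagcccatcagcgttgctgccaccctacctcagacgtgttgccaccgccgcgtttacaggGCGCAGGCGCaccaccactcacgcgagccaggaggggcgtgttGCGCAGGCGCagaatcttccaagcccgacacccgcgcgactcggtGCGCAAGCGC
The same letters thus stand before Ndufb4 and before Sdha, whose log2 fold changes were 0.38 and -0.01.

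The mitochondrial genome is transcribed as long precursors from both strands and cut at its transfer RNAs. Of its 37 annotated genes, 21 were in the table: all 13 messenger RNAs, both ribosomal RNAs and 6 of 22 transfer RNAs. Selection of polyadenylated RNA can keep mitochondrial messenger RNAs by their short tails. How well it kept each of them was not measured, so levels given here are those after selection. The mt- members took 1.74%, 1.67% and 1.62% of all counts in STAT3- CM, and 1.6%, 1.85% and 1.98% of them in STAT3+ CM. STAT3+ CM replicate 1 was the lowest of the 6 libraries and replicates 2 and 3 the highest, so the groups overlapped. As a share of all members' counts the values were 50.4%, 48.4% and 48.5%, and 46.5%, 47.8% and 53.5%. STAT3+ CM replicate 3, low for nuclear members, was thus the library with the highest share.

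Levels of the 13 messenger RNAs differed by over 3 orders of magnitude per kilobase. The highest was mt-Co1, the catalytic subunit of complex IV, at 3079, 2965 and 3521 CPM per kilobase in STAT3- CM and 3823, 3200.5 and 3532 CPM per kilobase in STAT3+ CM. The mt-Atp8 subunit of ATP synthase measured 3052, 3046 and 2740.2 CPM per kilobase in STAT3- CM and 2811, 3069 and 3767 CPM per kilobase in STAT3+ CM, and the start of its neighbour mt-Atp6 overlaps its end. Cytochrome b (mt-Cytb) of complex III measured 3116, 3073 and 2194 CPM per kilobase in STAT3- CM and 2298, 3309 and 3173 CPM per kilobase in STAT3+ CM. The complex I core subunit mt-Nd1 measured 2739, 2753 and 2000.7 CPM per kilobase in STAT3- CM and 2509, 3463 and 3231 CPM per kilobase in STAT3+ CM. These 4 overlap over libraries, so their order is not set. Below them were mt-Nd2 with a mean of 1517, mt-Nd5 with 689 and mt-Nd4 with 520.2 CPM per kilobase, all core subunits of complex I, and none of these 3 overlapped its neighbour in any library. The large and small ribosomal RNAs, mt-Rnr2 and mt-Rnr1, had means of 916 and 654. The complex I subunit mt-Nd6, the one messenger RNA of the opposite strand, had 48.0.

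A run of messenger RNA genes from mt-Co2 to mt-Nd4l (chrM:7013-10173 in GENCODE M21, GRCm38, plus strand) was far lower, with mt-Atp8 in its midst as the exception. The complex IV core subunits mt-Co2 and mt-Co3 had means of 49.8 and 1.63 CPM per kilobase, the ATP synthase subunit mt-Atp6 7.44, and the complex I subunits mt-Nd3 and mt-Nd4l 9.73 and 8.55. Their median was 8.55, against 2150 for the other 8 messenger RNAs, and together they gave 0.301% of the mt- messenger RNA level in CPM. All are cut from the same precursor as their abundant neighbours. In the annotation each of the 5 has a near-identical copy among the pseudogenes on chromosome 1: Gm28661, Gm10925, Gm28437, Gm28438 and Gm10222, with 100% identity over the aligned length in 4 and 99.71% for mt-Nd3. At least 97.99% of the 50-base windows of these 5 transcripts stand also in such a copy. The share was 62.23% for mt-Nd4, 51.14% for mt-Co1 and 0% for mt-Atp8. Only annotated transcripts were searched, so a copy of mt-Atp8 outside the annotation would not have been seen. How the authors' counting treated reads with more than 1 match is not given in the sources used here. The counts of these 5 genes and their fold changes are therefore uncertain. The levels of mt-Co1, mt-Nd4 and, with 7.61% of its windows shared, mt-Nd5 carry the same limit in part, and so does the order of mt-Nd5 above mt-Nd4. Among nuclear members, Atp5g2 had all windows of the transcript taken shared (with Gm10175) and 3927 to 5042 counts. The share was 43.42% for Uqcrb, 36.98% for Ndufb4 and 28.53% for Cycs, whose groups were apart, and 0% for Ndufa5. The 20 nuclear members with over 20% shared had a median log2 fold change of 0.20. It was 0.15 for 24 members with some, up to 20%, and 0.16 for 44 with none. The part of shared windows in counts or fold changes was not tested.

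The first 120 bases of mt-Co3 and mt-Nd3 are shown with those of their nuclear copies (GENCODE M21, GRCm38, chr1:24613189-24613971 and chr1:24612775-24613119, minus strand), since they show how little a read could tell them apart. Capitals mark the mismatch, T3C, with the mt-Nd3 base first and positions counted from 1 at the first base of the transcript.
mt-Co3: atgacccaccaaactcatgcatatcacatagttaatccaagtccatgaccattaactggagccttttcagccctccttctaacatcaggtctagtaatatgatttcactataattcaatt
Gm28437: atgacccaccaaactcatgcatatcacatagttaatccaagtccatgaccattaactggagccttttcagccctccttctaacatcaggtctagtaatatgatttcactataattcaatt
mt-Nd3: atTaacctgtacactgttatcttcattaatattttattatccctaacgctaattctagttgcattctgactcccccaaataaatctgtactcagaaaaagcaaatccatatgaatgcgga
Gm28438: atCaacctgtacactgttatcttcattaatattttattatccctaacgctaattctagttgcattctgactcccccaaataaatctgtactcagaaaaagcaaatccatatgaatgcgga
The mt-Co3 stretches are the same letter for letter, and the mt-Nd3 stretches differ in the capital base alone.

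**Figure D4:**
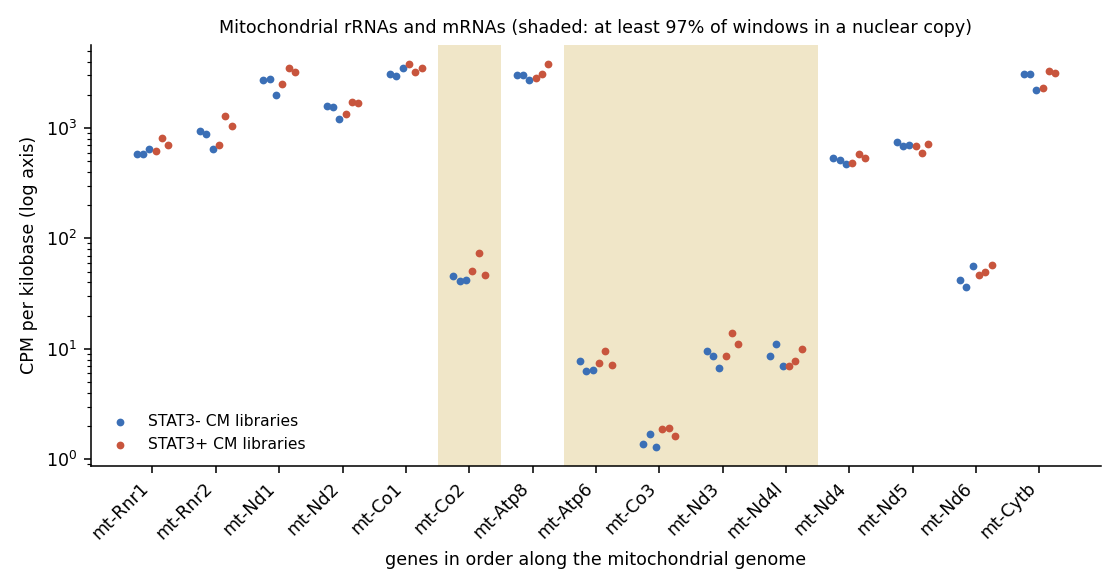
Level of each mt- messenger RNA and ribosomal RNA in CPM per kilobase (vertical log axis) in the 6 libraries, in order along the mitochondrial genome (horizontal axis). The 5 genes with a nearly complete annotated nuclear copy lie between 1.63 and 49.8 on average, and mt-Atp8 between them lies at 3081.

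No mt- member passed the test, and groups overlapped in all but mt-Co2. mt-Co2, which is among the 5 uncertain genes, measured 31.0, 27.9 and 28.5 CPM in STAT3- CM and 34.4, 50.8 and 31.8 CPM in STAT3+ CM. Its log2 fold change was 0.42 (SE 0.18), with STAT3+ CM replicate 2 well above the others. mt-Nd3 had the largest fold change of all members, 0.43 (SE 0.25), on 3.31, 2.98 and 2.34 CPM in STAT3- CM and 3.00, 4.85 and 3.85 CPM in STAT3+ CM. The other 3 uncertain genes had 0.30 (mt-Co3), 0.23 (mt-Atp6) and -0.10 (mt-Nd4l). Among the abundant transcripts mt-Nd1 measured 2621, 2635 and 1915 CPM in STAT3- CM and 2401, 3314 and 3092 CPM in STAT3+ CM, a log2 fold change of 0.30 (SE 0.18). The log2 fold changes of mt-Co1, mt-Nd2, mt-Atp8, mt-Nd4, mt-Cytb and mt-Nd6 were 0.14, 0.14, 0.13, 0.08, 0.07 and 0.19, with SEs of 0.13 to 0.20. mt-Nd5 stood at -0.09 (SE 0.14). The ribosomal RNAs mt-Rnr2 and mt-Rnr1 had 0.29 (SE 0.23) and 0.23 (SE 0.14).

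The 6 transfer RNAs in the table, mt-Ti, mt-Tt, mt-Tm, mt-Tq, mt-Tw and mt-Tp, had 12 to 376 counts per library. Their log2 fold changes were 0.26, 0.22, 0.14, 0.12, 0.12 and 0.03, with SEs of 0.20 to 0.41. The median of the mt- members was 0.27 without STAT3+ CM replicate 1 and 0.08 without STAT3+ CM replicate 2.

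The abundant mt- transcripts did not keep a fixed proportion over libraries. The ratio of mt-Cytb to mt-Co1 counts was 0.749, 0.767 and 0.461 in STAT3- CM, and for STAT3+ CM 0.445, 0.766 and 0.665. That of mt-Nd1 to mt-Co1 was 0.551, 0.575 and 0.352, and 0.407, 0.670 and 0.567. For mt-Nd2 it was 0.343, 0.350 and 0.232, and 0.236, 0.362 and 0.324. In these 3 ratios STAT3- CM replicate 3 and STAT3+ CM replicate 1 were the low libraries, 1 from each group. The ratio for mt-Nd4 was also lowest in them, at 0.119 and 0.112. That for mt-Nd5 was 0.284, 0.275 and 0.236, and 0.213, 0.217 and 0.242, where STAT3+ CM replicates 1 and 2 were the lowest. The windows of mt-Co1 shared with nuclear genes bear on all 5 ratios. The ratio of mt-Rnr2 to mt-Rnr1 was lowest in STAT3- CM replicate 3 and STAT3+ CM replicate 1, at 1.65 and 1.91, and 2.45 to 2.69 in the others. Without both libraries, an alternative chosen after the data were seen, the mt- median was 0.28 and the nuclear median 0.14, with 83 nuclear members positive and 0 members called.

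**Figure D5:**
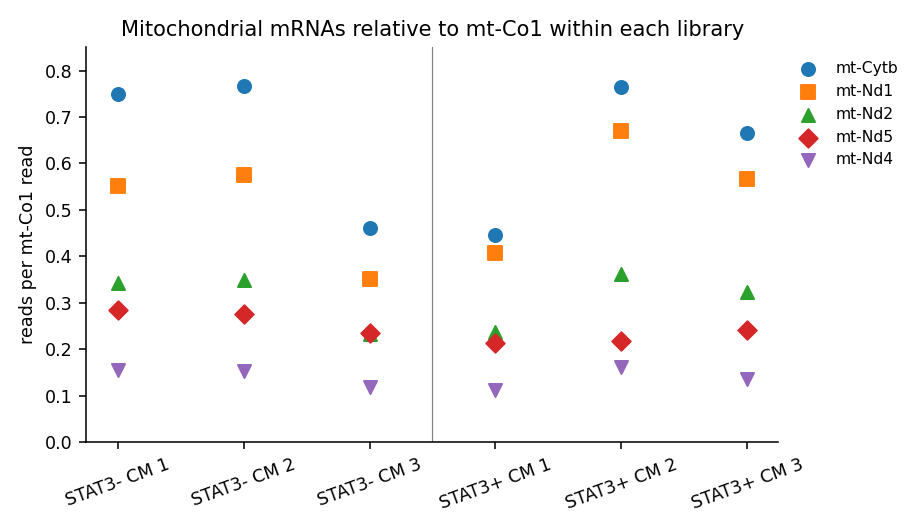
Ratio of the counts of mt-Cytb, mt-Nd1, mt-Nd2, mt-Nd5 and mt-Nd4 to those of mt-Co1 (vertical axis, reads per mt-Co1 read) in the 6 libraries (horizontal axis). STAT3- CM replicate 3 and STAT3+ CM replicate 1 fall below the other 4 libraries for mt-Cytb, with 0.461 and 0.445 against 0.665 to 0.767.

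Other genes of the pathway were taken from 7 lists, and none of their genes passed the test. Of 44 assembly factors outside the rule 38 were positive, with a median of 0.17, close to that of the members. Sdhaf4, an assembly factor of complex II, measured 12.0, 12.9 and 12.5 CPM in STAT3- CM and 17.4, 18.4 and 14.8 CPM in STAT3+ CM, with groups apart. Its log2 fold change was 0.43 (SE 0.15). Cmc1, which acts on complex IV assembly, had 0.43 (SE 0.17) and overlapping groups. All 7 other donors of electrons to ubiquinone were positive (5 when scaled by library totals), with a median of 0.18, including Dhodh of pyrimidine synthesis (0.22) and Etfb of fatty acid oxidation (0.24). Of 13 ubiquinone synthesis genes 10 were positive, with a median of 0.08. Coq3, a methyltransferase of that pathway, measured 25.9, 29.6 and 28.2 CPM in STAT3- CM and 35.7, 35.0 and 33.8 CPM in STAT3+ CM, with groups apart, and Coq8b had a log2 fold change of 0.24.

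Genes that keep and transcribe mitochondrial DNA had a median of 0.13, with 12 of 17 positive. The single-stranded DNA binding protein Ssbp1 and the elongation factor Tefm had 0.21 (SE 0.12) and 0.23 (SE 0.15). Genes that process or stabilise mitochondrial RNA had a median of 0.07, with 16 of 20 positive. Slirp, which protects mitochondrial messenger RNA, measured 60.1, 61.9 and 56.1 CPM in STAT3- CM and 72.6, 79.7 and 63.9 CPM in STAT3+ CM, and Hsd17b10, a subunit of the mitochondrial RNase P, had 0.18 (SE 0.12). Pyruvate dehydrogenase and the citric acid cycle had a median of 0.07, with 13 of 19 positive. There Suclg1, of succinyl-CoA ligase, had 0.25 (SE 0.12). Pcx, pyruvate carboxylase, measured 8.57, 9.52 and 9.07 CPM in STAT3- CM and 7.40, 5.19 and 4.93 CPM in STAT3+ CM, with every STAT3+ CM library lower, and its log2 fold change was -0.64 (SE 0.20, adjusted p 0.989 by edgeR).

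Nuclear regulators of respiratory genes had a median of 0.03, with 7 of 12 positive (a median of -0.02 and 5 of 12 when scaled by library totals). Gabpb2, a subunit of the ETS-family factor NRF2, measured 115, 103 and 104 CPM in STAT3- CM and 88.7, 67.8 and 93.3 CPM in STAT3+ CM. All STAT3+ CM libraries were lower, and the log2 fold change was -0.36 (SE 0.14). Myc, which drives growth of activated T cells, measured 283, 295 and 307 CPM in STAT3- CM and 338, 344 and 344 CPM in STAT3+ CM. All STAT3+ CM libraries were higher, including replicate 3, with a log2 fold change of 0.21 (SE 0.11). Neither passed the test.

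The genes outside the rule whose log2 CPM was most like the mean of the nuclear members over the 6 libraries were Edf1 (Pearson r 0.997), Elob (0.994), Ap2s1 (0.993), Srp9 (0.991) and Trbv30 (0.990). Edf1 measured 153, 162 and 144 CPM in STAT3- CM and 183, 203 and 145 CPM in STAT3+ CM. STAT3+ CM replicate 3 again lay near the STAT3- CM libraries. All 5 transcripts are 332 to 823 bases long. For the mt- members they were Tmem29 (0.992), Slc36a3os (0.991), Kcnn4 (0.984), Zfp932 (0.983) and Taf1d (0.981). With 6 libraries and 14319 genes to choose from, these likenesses are descriptions.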

How the data were processed

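Polyadenylated RNA of CD8+ T cells was sequenced in 6 libraries, 3 in each of 2 groups taken from the labels. The authors deposited a table of raw read counts, with genes as rows and libraries as columns. Per the submitters' processing notes the tools were TopHat2 2.0.10 on Bowtie 1.0.0 with the GRCm39 build, Cufflinks 2.2.1, FastQC and SAMtools 0.1.19. Which program counted reads, on which annotation and strand, and what it did with reads of several matches is not given in the sources used here. Hence overlapping genes, paralogs and genes with near-identical copies are less certain.

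Counts were filtered with filterByExpr (14319 of 14481 genes kept), scaled by TMM (factors 0.960 to 1.06) and compared in edgeR 4.0.16 (R 4.3.3) with its quasi-likelihood test, robust option, and group as the only term. Two-sided p-values were adjusted (Benjamini-Hochberg, 14319 genes) and read at 0.05. Each SE was derived by dividing the size of a log2 fold change by the root of its F value. CPM used TMM-scaled totals, and log2 CPM a prior count of 2. Lists are described by counts and medians, with no set test. Transcript lengths, 50-base windows and nuclear copies came from GENCODE M21 (GRCm38), which matched 14121 symbols, and 110 of 114 members. The lowess trends used a span of 0.3. DESeq2 1.42.0 and limma 3.58.1 served as alternatives. The fit was tested on simulated counts.

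The members, lists and tests were chosen with earlier results of these data known. Named genes followed a rule: all mt- members; in each nuclear complex the 2 with the smallest p and the one of highest CPM; the Sdh genes, Cyc1 and Cycs; isoform groups; members with groups apart; the 2 genes of smallest p in each list; and the 5 genes most like the members. Of the genes so chosen, 1 is not reported here. Ndufb1, the threshold for copied genes, the wider NRF1 letters and the promoters shown were chosen after the values were seen.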

Additional observations from a re-analysis of the deposited data

How the results depend on the processing

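No alternative called an oxidative phosphorylation member: edgeR with other scalings or filters, DESeq2, both limma-voom fits, the older edgeR method, the replicate block and each fit with a library left out gave 0. For all genes, 48 were called by DESeq2, 14 by limma-voom with quality weights, and 0 to 18 with 1 library left out (1 without STAT3- CM replicate 1, 18 without STAT3- CM replicate 3). Without both STAT3- CM replicate 3 and STAT3+ CM replicate 1, chosen after the data were seen, 10 were called. With 1 library left out, the nuclear median ran from 0.077 to 0.27 and the mt- median from 0.082 to 0.27. Nuclear members with groups apart, higher in STAT3+ CM, ran from 12 to 68 of 93, beside 5.87% to 13.4% of all genes. They were 16 without STAT3- CM replicate 3, beside 11.3% of all genes. Fewer libraries separate more easily by construction, and the cause of the other shifts was not tested.

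The labels do not say that equal numbers share a source, so numbers were not taken as pairs. Deviations of same-numbered libraries from their group means had r = -0.26, 0.28 and 0.18. These values cannot decide on pairing, because the deviations within each group of 3 libraries sum to 0. With the replicate block 0 genes were called, the nuclear median was 0.17 with 91 positive, and the changes of sign were Cox6b2 0.0042 and mt-Tp -0.028 (log2 fold changes). The other changes of sign, none past the test, were Atp5g1 -0.0036 and mt-Tp -0.013 with scaling by library totals, Cox6b2 0.041 and mt-Tp -0.11 by limma-voom, and Atp5g1 -0.038, Cox6b2 0.43 and mt-Cytb -0.029 with quality weights. Without both libraries named above they were Atp5b -0.020, Atp5g1 -0.066, Atp5g2 -0.020 and Cox6b2 0.63. With 1 library left out, values changed sign in 16 named members, with ranges of Atp5b -0.028 to 0.12, Atp5g1 -0.10 to 0.14, Atp5g2 -0.040 to 0.18, Cox4i1 -0.032 to 0.23, Cox6a2 -0.49 to 0.25, Cox6b2 -0.49 to 0.56, Cox7a2l -0.066 to 0.29, Cyc1 -0.030 to 0.14, mt-Atp8 -0.0030 to 0.21, mt-Cytb -0.081 to 0.21, mt-Nd4l -0.28 to 0.081, mt-Tp -0.21 to 0.38, mt-Tq -0.14 to 0.42, mt-Tt -0.024 to 0.47, Sdha -0.095 to 0.052 and Sdhb -0.0047 to 0.22. In total 42 of 1200 recomputed values of named genes changed sign, and none crossed the threshold. Cox6a2 had 11 to 31 counts per library and mt-Co3 47 to 71, with SEs of 0.46 and 0.26.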
